A study of Homo sapiens with 6 samples.

Results

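A list of 50 genes of the p53 response and of the apoptosis machinery was followed in HEK-293T cells given a guide RNA against C17orf80. They were taken from a fixed list of symbols that was chosen with earlier results of these data known. All 50 were found among the 62348 gene identifiers of the deposited count tables. The list held 19 regulators and targets of p53, 11 death receptors and their adaptors, 6 caspases and apoptosome components, 4 genes around the inhibitors of apoptosis and 10 members of the BCL2 family. Poly(A)-selected RNA was sequenced from 3 libraries labelled KO, of genotype C17orf80 knockout and given a C17orf80 sgRNA, and from 3 libraries labelled WT, given a non targeted sgRNA. Both groups are HEK-293T, an embryonic kidney line with the large T antigen of SV40, grown in DMEM with serum. The knockout line was made with CRISPR/Cas9 and selected as monoclonal cells with puromycin. No label states the number of clones or says that libraries came from separate cultures, so the p-values measure only the spread between these libraries, and a difference between clones and an effect of the guide cannot be told apart.

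The transcription factor p53 is held at a low level by MDM2 and MDM4 and, when released by DNA damage or other stress, raises genes for cell cycle arrest, repair and death. In cells with large T antigen the viral protein binds p53 and blocks its activity as a transcription factor. Apoptosis itself starts at death receptors of the TNF receptor family, which recruit FADD and CASP8, or at mitochondria, where BAX and BAK1 release cytochrome c for the APAF1 and CASP9 apoptosome. Both routes end in the activation of effector caspases.

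Levels are given as CPM, counts scaled to library size with TMM factors, with ± for the SD over n = 3 libraries, and values of a group are listed in the order of replicates 1 to 3. Fold changes are labelled KO over WT on the log2 scale with ± for the standard error, and a gene was called at an edgeR quasi-likelihood adjusted p under 0.05 over all tested genes. Gene counts per library ranged from 15942017 to 16122771 in the libraries labelled KO and from 14982340 to 16278091 in WT. C17orf80 transcript was at 56.4, 42.4 and 41.96 CPM in the libraries labelled KO, against 25.8, 26.8 and 29.2 CPM in WT. The targeted transcript was thus higher in each library labelled KO, and KO is used below as the name on the label. KO replicate 1 stood apart, with a correlation to KO replicates 2 and 3 of 0.944 and 0.956 across genes on log2(CPM + 1), against 0.993 between those replicates, and with 11.9% of its gene counts on mitochondrial genes, against 4.53% and 5.00%. Of 9 markers fixed for HEK-293T cells, 8 had at least 1 CPM in each library and LHX1 did not, and they summed to 630.4 to 685 CPM in the libraries labelled KO and 735 to 776 CPM in WT. NEFL was called lower in the libraries labelled KO, at a mean of 69.9 against 194.5 CPM in WT (log2 fold change -1.48, edgeR adjusted p = 0.00252). EYA1 was also called lower, at 7.45 against 19.8 CPM (-1.41, edgeR adjusted p = 0.00610). The remaining HEK-293T markers that could be tested were not called, with KRT8 at the higher mean of 95.6 against 67.9 CPM. Of 9 markers of blood, liver, endothelium and muscle, 7 were under 1 CPM in each library, with PTPRC, CD3E and CDH5 at 0 counts, and the 9 summed to 2.88 to 5.40 CPM in the libraries labelled KO and 3.92 to 4.36 CPM in WT.

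Few of the 50 genes passed the test. Over all 6 libraries 46 could be tested, 5 were called higher and 3 lower in the libraries labelled KO, and 38 were not called. PPM1D, FAS, TNFRSF10D, BIRC3 and BCL2 were higher, and PLK3, TP53INP1 and CASP9 were lower. The 8 calls were 17.4% of the tested genes of the list, against 15.1% of all 17452 tested genes, of which 8.64% were called higher and 6.5% lower. The list as a whole was therefore called about as often as genes in general, and its median log2 fold change was -0.071, against 0.0055 over all tested genes. TNFRSF10D and BIRC3 passed the filter on low counts only through the libraries labelled KO, so a difference was built into their being tested. TNFRSF10D and BIRC3 were called whichever library was left out, while PPM1D, PLK3, FAS, BCL2, TP53INP1 and CASP9 missed the threshold without WT replicate 1 and without WT replicate 3, with the direction kept. RNA from bulk cells cannot tell apart fewer cells with a transcript and less transcript per cell.

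The same reading held without KO replicate 1, where calls were common throughout the genome. Of 47 genes of the list that could then be tested, 14 were called higher and 9 lower, or 48.9%, against 44% of all 18133 tested genes (22.3% higher and 21.7% lower). The 8 genes called over all 6 libraries were among them, with the same direction. Groups that did not overlap were also common. In 19 of the 46 tested genes, or 41.3%, each library labelled KO lay on the same side of each WT library, against 47.6% of all tested genes, with 10 above WT (23.5% of all tested genes) and 9 below WT (24.1% of all tested genes).

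**Figure D1:**
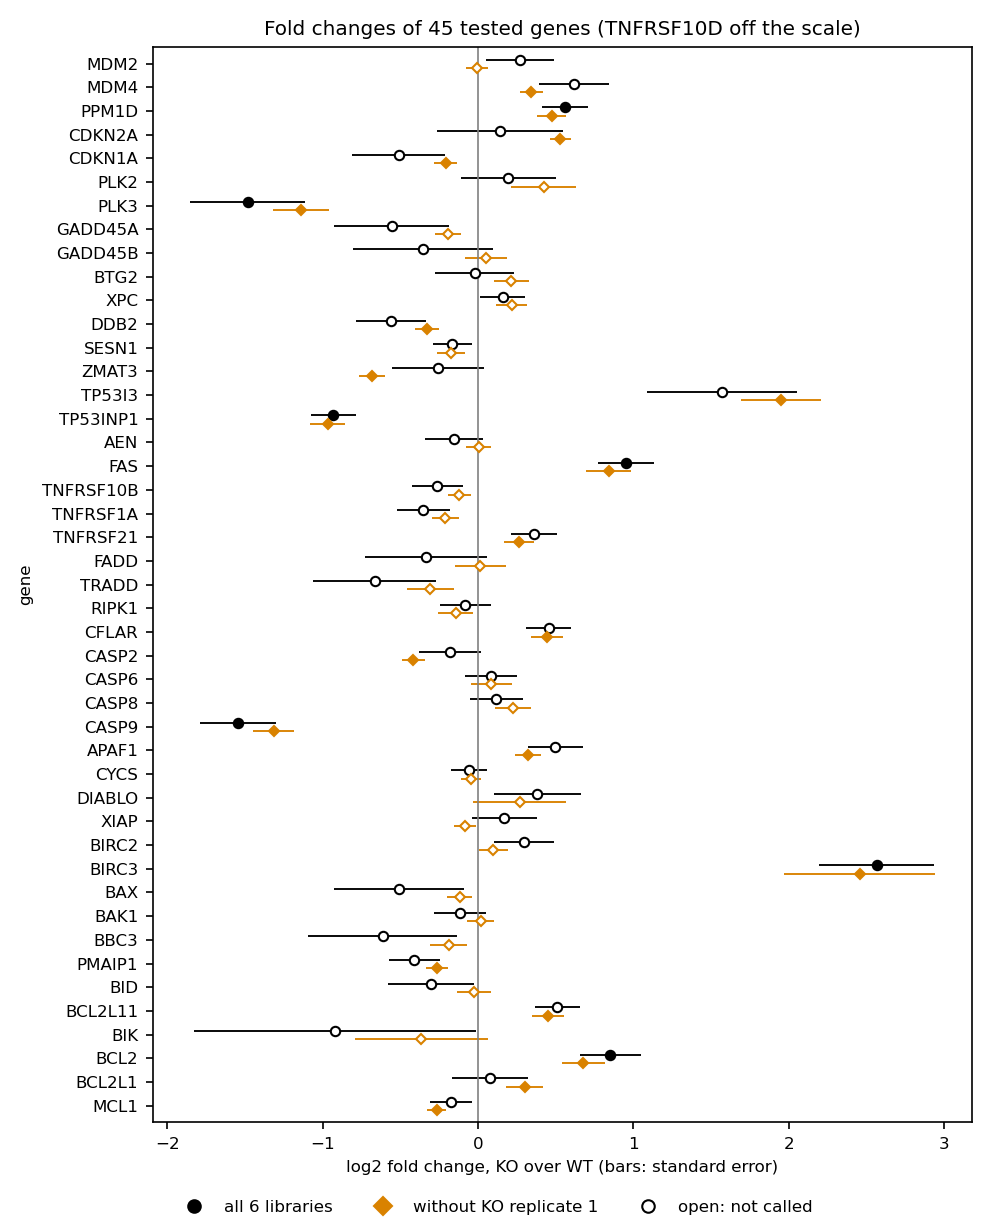
Log2 fold change of each tested gene, labelled KO over WT, with bars for the standard error, over all 6 libraries (circles) and without KO replicate 1 (diamonds); filled symbols were called by edgeR and open ones were not. TNFRSF10D is left off the axis. PPM1D, PLK3, TP53INP1, FAS, CASP9, BIRC3 and BCL2 are filled in both fits, and the bars are shorter for most genes without KO replicate 1.

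In WT cells most p53 regulators and targets were transcribed. Of the 19, 17 had at least 1 CPM in each WT library, and the exceptions were GADD45G and the ribonucleotide reductase pseudogene RRM2P3. The same held for 44 of the 50 genes of the whole list, so passing this limit was not particular to p53 targets. CDKN1A, the CDK inhibitor that carries out the arrest imposed by p53, was at 90.3, 87.1 and 94.1 CPM in WT. MDM2, the ubiquitin ligase that removes p53 and is itself its target, was at 114, 121 and 123 CPM, and the related MDM4 at 115, 113 and 111 CPM. Values of different genes are not ranked against each other here, since transcript lengths were not at hand and a CPM grows with length.

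Other arrest and repair targets, apart from GADD45G and RRM2P3, were also above 1 CPM in each WT library. GADD45A, a damage-induced growth arrest gene, was at 79.8, 74.3 and 72.0 CPM, and the nucleotide excision repair gene DDB2 at 74.1, 77.4 and 73.1 CPM. XPC, the damage sensor of the same repair pathway, was at 30.1, 30.8 and 27.7 CPM. The antiproliferative BTG2 was at 24.8, 28.0 and 28.3 CPM, the sestrin SESN1 at 43.0, 44.5 and 44.2 CPM, and the kinase PLK2 at 4.16, 6.65 and 6.004 CPM in WT. Of the targets tied to death, the RNA-binding zinc finger gene ZMAT3 was at 73.0, 75.5 and 77.7 CPM and the exonuclease AEN at 121, 124 and 110.2 CPM. The oxidoreductase TP53I3 was at 1.89, 1.72 and 2.51 CPM. PLK2 and TP53I3 varied more between the WT libraries, in proportion to their own mean, than the other genes of this paragraph.

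**Figure D2:**
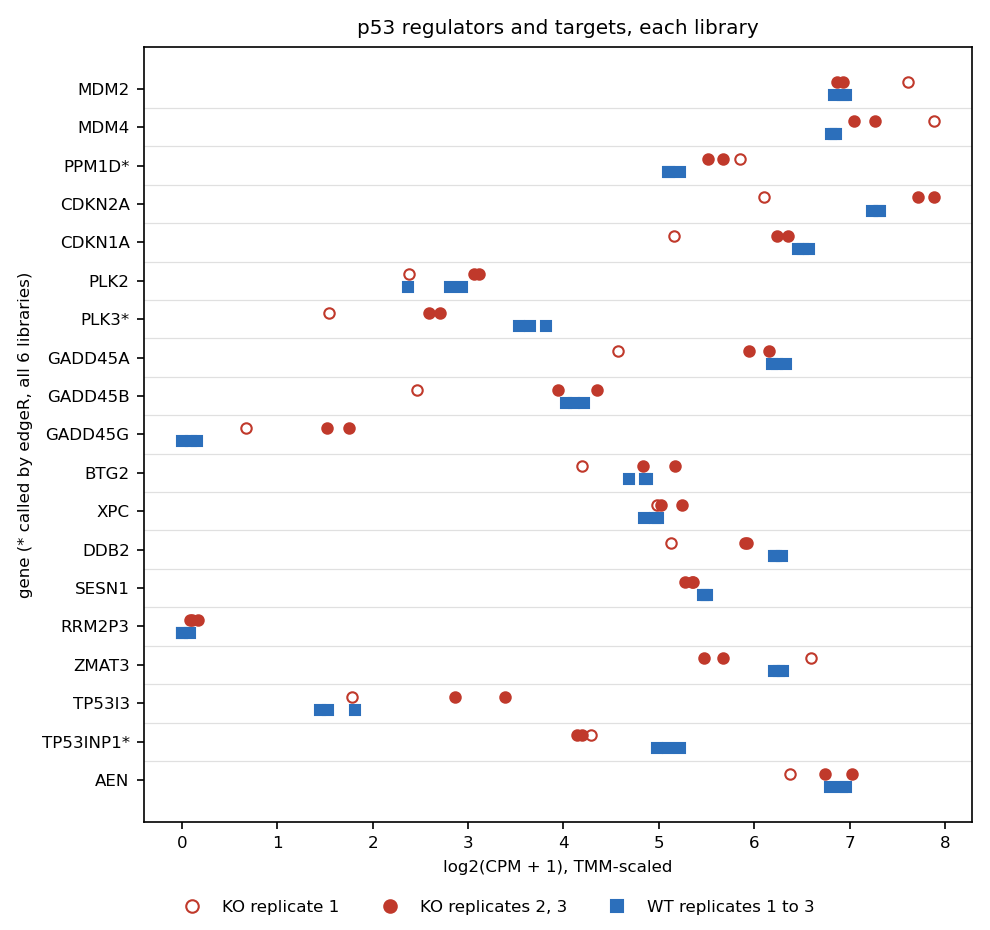
Level of each p53 regulator and target in each library as log2(CPM + 1), with libraries labelled KO as red circles above WT libraries as blue squares, and KO replicate 1 as an open circle; asterisks mark genes called by edgeR over all 6 libraries. The WT squares of most genes lie close together, and the open circle lies left of the filled ones for CDKN2A, CDKN1A, GADD45A, GADD45B and TP53I3 and right of them for MDM2, MDM4 and ZMAT3.

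Among the 4 regulators PPM1D was called, or 25%, against 15.1% of all tested genes. PPM1D encodes the phosphatase WIP1, which dephosphorylates p53 and its upstream kinases. The gene (ENSG00000170836, chromosome 17, 60600193 to 60666280 on GRCh38) was at 56.8, 44.7 and 50.1 CPM in the libraries labelled KO, against 33.2, 33.5 and 36.3 CPM in WT. The groups did not overlap, at 50.5 ± 6.07 CPM in the libraries labelled KO and 34.3 ± 1.71 CPM in WT (SD, n = 3 each). The log2 fold change was 0.56 ± 0.15 (edgeR adjusted p = 0.0441) and 0.47 without KO replicate 1. The RefSeq promoter of PPM1D, from base -111 to base -12 relative to the annotated start, is shown because it holds a cAMP response element (CRE), in capitals:
PPM1D (chr17:60600082-60600181, + strand, GRCh38.p14): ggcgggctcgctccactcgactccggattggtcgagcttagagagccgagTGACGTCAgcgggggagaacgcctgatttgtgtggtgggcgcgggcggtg
The motif searched was TGACGTCA, which reads the same on both strands. It was present in 1.85% of 35114 RefSeq promoter windows of 250 bases before to 50 bases after a start. Of the 70 windows of list genes, 3 held it (4.29%), those of PPM1D and of BIRC2, and BIRC2 was not called.

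The partner regulators did not pass over all 6 libraries. MDM4 was at 236, 131 and 153 CPM in the libraries labelled KO, against 115, 113 and 111 CPM in WT, without overlap, with 0.62 ± 0.22 on the log2 scale (edgeR adjusted p = 0.103). Without KO replicate 1 its log2 fold change was 0.34 and it was called (edgeR adjusted p = 0.000525). MDM2 was at 195, 116 and 121 CPM in the libraries labelled KO, against 114, 121 and 123 CPM in WT, and KO replicate 1 alone lay above WT; the log2 fold change was 0.27 ± 0.22, and -0.0052 without that library. CDKN2A, which encodes the CDK4 and CDK6 inhibitor INK4A and the MDM2 antagonist ARF from overlapping exons, was at 68.0, 236 and 209 CPM in the libraries labelled KO, against 159, 149 and 158 CPM in WT. KO replicate 1 lay below WT and the other two libraries above it, so the log2 fold change was 0.14 ± 0.41 (edgeR adjusted p = 0.830), and 0.53 without KO replicate 1 (edgeR adjusted p = 5.86e-07). The counts do not separate the transcripts of CDKN2A, and the annotated spans of CDKN2B-AS1 and CDKN2A-AS1 overlap it.

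Among the 11 targets for arrest and repair, PLK3 was called lower, 8 were not called and GADD45G and RRM2P3 had too few counts for the test. The call was 11.1% of the tested genes of this group, against 15.1% of all tested genes. PLK3, a polo-like kinase of the stress response (ENSG00000173846, chromosome 1, 44800377 to 44805990 on GRCh38), was at 1.92, 5.04 and 5.53 CPM in the libraries labelled KO, against 11.6, 10.6 and 13.1 CPM in WT. The groups did not overlap, at 4.16 ± 1.96 CPM in the libraries labelled KO and 11.7 ± 1.25 CPM in WT (SD, n = 3 each). The log2 fold change was -1.48 ± 0.37 (edgeR adjusted p = 0.0381), and -1.14 without KO replicate 1. CDKN1A was at 34.6, 80.8 and 74.8 CPM in the libraries labelled KO, against 90.3, 87.1 and 94.1 CPM in WT. Its values did not overlap either, but the test over all 6 libraries was not passed (log2 fold change -0.51 ± 0.30, edgeR adjusted p = 0.270), and without KO replicate 1 the change was -0.21 and was called (edgeR adjusted p = 0.0272). DDB2 followed the same course, at 34.0, 58.8 and 59.6 CPM in the libraries labelled KO against 74.1, 77.4 and 73.1 CPM in WT, with -0.56 ± 0.23 over all 6 libraries (edgeR adjusted p = 0.133) and -0.33 without KO replicate 1 (edgeR adjusted p = 0.00124).

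The GADD45 genes differed from each other. GADD45A was at 22.9, 70.2 and 60.7 CPM in the libraries labelled KO, against 79.8, 74.3 and 72.0 CPM in WT, and was called in neither fit (-0.55 and -0.20). GADD45B was at 4.51, 19.4 and 14.4 CPM in the libraries labelled KO, against 17.6, 16.3 and 15.3 CPM in WT, so that KO replicate 1 alone lay far from the rest. GADD45G had 8, 39 and 31 counts in the libraries labelled KO, against 1, 2 and 0 counts in WT, a ratio of 27.1 (95% interval from counting error 8.93 to 134). It was below the filter on low counts over all 6 libraries, and passed it without KO replicate 1 only through the libraries labelled KO, so its call as higher in that fit had a difference built in. RRM2P3 had 4 counts over the libraries labelled KO and 1 over WT, which is too few to compare, and reads of the ribonucleotide reductase gene it was copied from could fall on it. BTG2, XPC, SESN1 and PLK2 had log2 fold changes between -0.17 and 0.19 and were called in neither fit. In the libraries labelled KO, BTG2 was at 17.3, 35.0 and 27.5 CPM, XPC at 30.6, 36.8 and 31.4 CPM and PLK2 at 4.22, 7.34 and 7.63 CPM, each overlapping the WT values above. SESN1 was at 40.2, 37.6 and 39.7 CPM in the libraries labelled KO, just below its lowest WT library.

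Of the 4 targets linked to death and other responses, TP53INP1 was called lower, or 25%, against 15.1% of all tested genes. TP53INP1, a stress protein that promotes p53 phosphorylation and autophagy (ENSG00000164938, chromosome 8, 94925972 to 94949378 on GRCh38), was at 18.6, 16.6 and 17.3 CPM in the libraries labelled KO, against 36.3, 30.5 and 33.3 CPM in WT. KO replicate 1 lay with its group here, and the means were 17.5 ± 0.986 CPM in the libraries labelled KO and 33.4 ± 2.91 CPM in WT (SD, n = 3 each). TP53INP1 fell by 0.93 ± 0.14 on the log2 scale (edgeR adjusted p = 0.00789). Its annotated span overlaps that of NDUFAF6. TP53I3 was at 2.44, 9.47 and 6.25 CPM in the libraries labelled KO, against 1.89, 1.72 and 2.51 CPM in WT, with KO replicate 1 inside the WT range (log2 fold change 1.57 ± 0.48, edgeR adjusted p = 0.0685). Without that library TP53I3 was called at 1.95 (edgeR adjusted p = 9.44e-07). ZMAT3 was at 96.0, 43.4 and 49.9 CPM in the libraries labelled KO, against 73.0, 75.5 and 77.7 CPM in WT, so KO replicate 1 lay on the other side of WT; the log2 fold change was -0.26 ± 0.29, and -0.68 without it (edgeR adjusted p = 4.35e-07). AEN was at 82.1, 129.7 and 106 CPM in the libraries labelled KO, on both sides of WT, and was called in neither fit.

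Over the 19 genes, 1 was called higher and 2 lower of 17 tested, or 17.6% against 15.1% of all tested genes, with a median log2 fold change of -0.16. Without KO replicate 1 there were 5 higher and 5 lower of 18, or 55.6% against 44% of all tested genes, with a median of 0.028. A p53 half-site, searched on both strands without mismatch, was found in 4 of the 24 promoter windows of p53 regulators and targets (16.7%), those of PLK2, SESN1, DDB2 and AEN, and in 6.63% of all windows. These 4 genes were not among those called over all 6 libraries, but FAS and CASP9, which were called and are described below, also held a half-site. Among windows of the further p53 targets described below, 5 of 60 held it (8.33%). Many known p53 sites, such as those of CDKN1A and MDM2, lie outside windows of this length or inside introns.

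Of the 7 death receptors, 2 were called higher, 3 were not called and 2 had too few counts for the test. The calls were 40% of the 5 tested receptors, a share that rests on few genes, against 15.1% of all tested genes. FAS, the receptor of FAS ligand and a p53 target (ENSG00000026103, chromosome 10, 88964050 to 89017059 on GRCh38), was at 20.4, 17.6 and 14.9 CPM in the libraries labelled KO, against 8.65, 9.21 and 9.50 CPM in WT. Each library labelled KO was above each WT library, with means of 17.6 ± 2.75 CPM in the libraries labelled KO and 9.12 ± 0.431 CPM in WT (SD, n = 3 each). The log2 fold change was 0.95 ± 0.18 (edgeR adjusted p = 0.0157), and 0.84 without KO replicate 1. The annotated span of FAS overlaps those of ACTA2 and FAS-AS1, and strand was not stated for the counts. One of the 3 RefSeq promoter windows of FAS, inside the gene span, held both a p53 half-site and an NF-kB consensus, and the stretch from base -182 to base -73 relative to that start is shown with the NF-kB motif as the first and the p53 half-site as the second run of capitals:
FAS (chr10:88991249-88991358, + strand, GRCh38.p14): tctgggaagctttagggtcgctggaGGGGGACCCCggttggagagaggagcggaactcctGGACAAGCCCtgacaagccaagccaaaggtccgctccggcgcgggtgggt
The NF-kB motif of FAS matches on both strands. A match describes the letters and says nothing of binding.

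TNFRSF10D, a receptor that binds the ligand TRAIL but has a truncated death domain and so acts as a decoy, changed most within the list. It had 85, 185 and 166 counts in the libraries labelled KO and 0 counts in each WT library (ENSG00000173530, chromosome 8, 23135588 to 23164027 on GRCh38). The level was 6.29, 11.2 and 9.98 CPM in the libraries labelled KO (9.16 ± 2.57 CPM, SD, n = 3), which is at least 151-fold higher when 3 counts over the WT group are set in place of 0 (edgeR adjusted p = 0.00156). TNFRSF10D passed the filter on low counts only through the libraries labelled KO, so this p-value had a difference built in. Of its neighbours, TNFRSF10A, the death-inducing TRAIL receptor DR4, had 0 counts in all 6 libraries, which allows up to 0.0643 CPM in the libraries labelled KO and up to 0.0618 CPM in WT. TNFRSF10C, the decoy receptor held by a lipid anchor, had 0, 7 and 5 counts in the libraries labelled KO, against 0, 1 and 1 in WT, a ratio of 6.25 (95% interval from counting error 1.39 to 57.5). TNFRSF10B, the death-inducing receptor DR5 and a p53 target, was at 73.1, 102 and 96.4 CPM in the libraries labelled KO, against 112, 112 and 102 CPM in WT, and was called in neither fit (-0.26 ± 0.16 and -0.12). The 4 receptor genes are related in sequence, and no label says how reads that fit more than 1 gene were treated.

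The remaining receptors, TNFRSF1A and TNFRSF21, were not called over all 6 libraries. TNFRSF1A, the main TNF receptor, was at 36.3, 53.4 and 45.6 CPM in the libraries labelled KO, against 55.6, 57.6 and 59.6 CPM in WT, without overlap but not called in either fit (-0.35 ± 0.17 over all 6 libraries). TNFRSF21, the receptor DR6, was at 41.7, 35.3 and 32.6 CPM in the libraries labelled KO, against 28.0, 27.8 and 29.5 CPM in WT (0.36 ± 0.15, edgeR adjusted p = 0.137), and was called higher without KO replicate 1 at 0.27.

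None of the 4 adaptors and regulators at the receptors was called over all 6 libraries, against 15.1% of all tested genes. An unadjusted p under 0.05 was given by edgeR for CFLAR alone (1 of 4), DESeq2 called CFLAR (1 of 4) and limma-voom called 0. CFLAR, the catalytically inactive relative of CASP8 that blocks its activation, was at 39.3, 38.8 and 36.6 CPM in the libraries labelled KO, against 24.5, 29.9 and 29.3 CPM in WT. The groups did not overlap (0.45 ± 0.14, edgeR adjusted p = 0.0729), and CFLAR was called without KO replicate 1 at 0.44 (edgeR adjusted p = 0.00103). FADD, the adaptor that links FAS to CASP8, was at 4.81, 16.0 and 10.9 CPM in the libraries labelled KO, against 13.1, 11.5 and 15.5 CPM in WT. TRADD, the adaptor of TNFRSF1A, was at 4.44, 15.5 and 10.2 CPM in the libraries labelled KO, against 15.7, 15.3 and 16.97 CPM in WT. For both adaptors KO replicate 1 was the lowest library, and neither was called in either fit. RIPK1, a kinase at TNF receptors with roles in survival and death, overlapped between the groups (-0.084 ± 0.16).

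**Figure D3:**
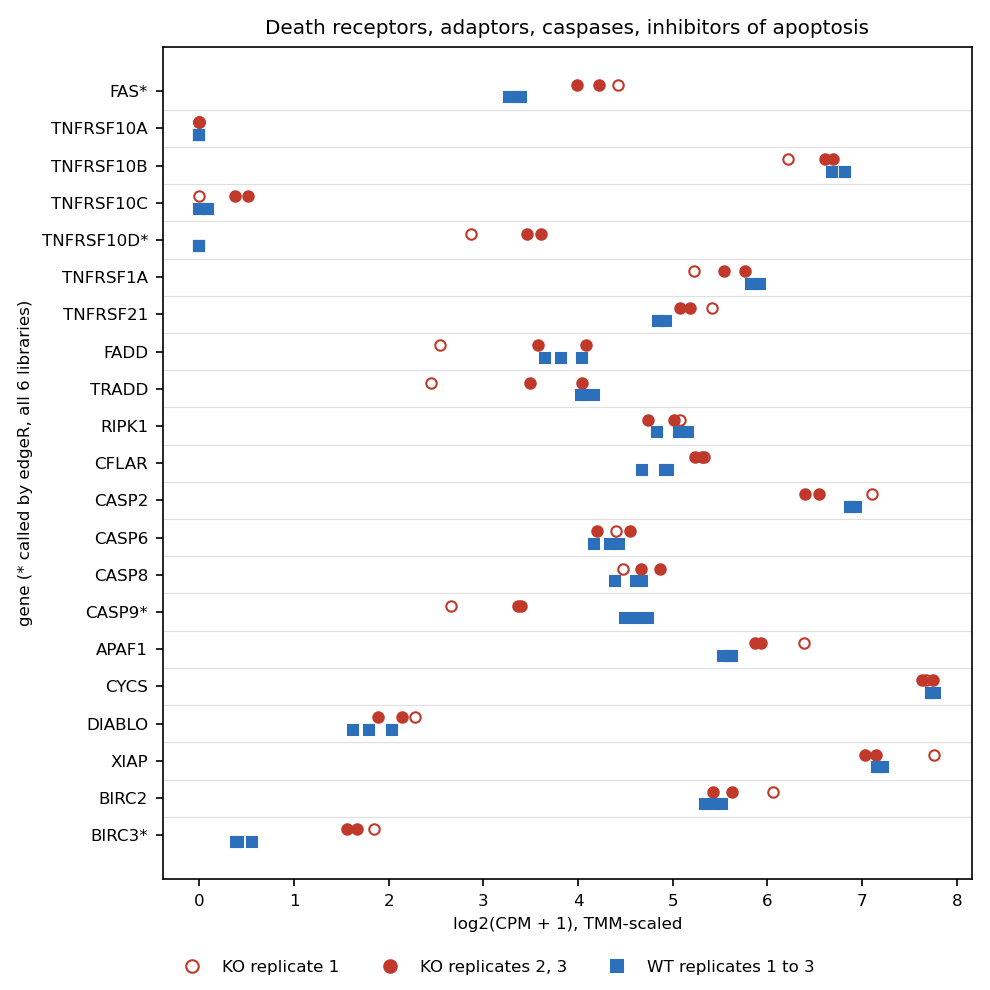
Level of each death receptor, adaptor, caspase, apoptosome gene and inhibitor of apoptosis in each library as log2(CPM + 1), with libraries labelled KO as red circles above WT libraries as blue squares, and KO replicate 1 as an open circle; asterisks mark genes called by edgeR over all 6 libraries. TNFRSF10D is at 0 in the 3 WT libraries and between 6.29 and 11.2 CPM in the libraries labelled KO, and CASP9 lies left of WT in each library labelled KO.

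Among the caspases and the apoptosome CASP9 was called lower, and the other 5 genes were not called. The call was 16.7% of this group, against 15.1% of all tested genes. CASP9, the initiator caspase of the mitochondrial route (ENSG00000132906, chromosome 1, 15491401 to 15524912 on GRCh38), was at 5.32, 9.53 and 9.32 CPM in the libraries labelled KO, against 23.6, 21.6 and 25.7 CPM in WT. Each library labelled KO was below each WT library, with means of 8.06 ± 2.37 CPM in the libraries labelled KO and 23.6 ± 2.06 CPM in WT (SD, n = 3 each). The log2 fold change was -1.55 ± 0.25 (edgeR adjusted p = 0.00884), and -1.32 without KO replicate 1. The stretch from base -228 to base -119 relative to an annotated start of CASP9 is shown because it holds a p53 half-site, in capitals:
CASP9 (chr1:15524909-15525018, - strand, GRCh38.p14): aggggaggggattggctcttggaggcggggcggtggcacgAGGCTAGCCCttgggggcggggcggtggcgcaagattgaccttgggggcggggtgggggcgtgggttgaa
The half-site was found in 8 of the 70 windows of list genes (11.4%), against 6.63% of all windows. Besides CASP9 these belonged to FAS, called higher, and to PLK2, SESN1, DDB2, AEN, CASP8 and BAK1, not called over all 6 libraries.

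APAF1, which assembles the apoptosome around CASP9, was on the other side of WT from CASP9. It was at 82.8, 57.2 and 59.9 CPM in the libraries labelled KO, against 45.2, 48.0 and 48.4 CPM in WT, without overlap (0.50 ± 0.18, edgeR adjusted p = 0.0992), and was called higher without KO replicate 1 at 0.32 (edgeR adjusted p = 0.00297). CYCS, the cytochrome c that triggers this assembly, was at 204, 198 and 214 CPM in the libraries labelled KO, against 213, 211 and 218 CPM in WT (-0.058 ± 0.12). CASP8, the initiator caspase at death receptors, was at 21.1, 24.3 and 28.3 CPM in the libraries labelled KO, against 24.6, 20.02 and 23.5 CPM in WT (0.12 ± 0.17). CASP6, an effector caspase, overlapped likewise (0.081 ± 0.17). CASP2, an initiator activated by the PIDDosome, was at 136, 83.1 and 92.5 CPM in the libraries labelled KO, against 116, 121 and 117 CPM in WT, with KO replicate 1 above and the others below WT (-0.18 ± 0.20; -0.42 without KO replicate 1, edgeR adjusted p = 5.96e-05).

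Of the inhibitors of apoptosis and their antagonist, BIRC3 was called higher and the other 3 genes were not called. The call was 25% of this group, against 15.1% of all tested genes. BIRC3 encodes cIAP2, a ubiquitin ligase at TNF receptors that is a well-known NF-kB target. The gene (ENSG00000023445, chromosome 11, 102317484 to 102339403 on GRCh38) had 35, 32 and 36 counts in the libraries labelled KO, against 5, 8 and 5 counts in WT. In CPM these were 2.59, 1.94 and 2.16 in the libraries labelled KO, against 0.325, 0.475 and 0.306 in WT, a change of 2.56 ± 0.37 on the log2 scale (edgeR adjusted p = 0.00598). BIRC3 passed the filter on low counts only through the libraries labelled KO, so this p-value had a difference built in. The level was low in both groups, at 2.23 ± 0.328 CPM in the libraries labelled KO and 0.369 ± 0.0925 CPM in WT (SD, n = 3 each). The promoter of BIRC3 from base -229 to base -96 relative to the start is shown because it holds 2 NF-kB consensus motifs, in capitals, on the strand opposite to the one printed:
BIRC3 (chr11:102317255-102317388, + strand, GRCh38.p14): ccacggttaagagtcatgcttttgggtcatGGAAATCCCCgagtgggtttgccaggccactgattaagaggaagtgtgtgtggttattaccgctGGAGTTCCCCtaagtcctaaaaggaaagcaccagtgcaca
The NF-kB consensus, searched on both strands, was present in 11.3% of all windows and in 6 of the 70 windows of list genes, those of BIRC3, FAS, CFLAR, CASP2, ZMAT3 and GADD45B. The related BIRC2 was at 65.6, 41.9 and 48.2 CPM in the libraries labelled KO, against 39.4, 44.9 and 42.6 CPM in WT (0.29 ± 0.19). XIAP, which binds and inhibits CASP9, was at 216, 130.1 and 141 CPM in the libraries labelled KO, against 148, 144 and 141 CPM in WT, where KO replicate 1 alone lay above WT. DIABLO, the mitochondrial protein that displaces XIAP, was at 2.71 to 3.85 CPM in the libraries labelled KO and at 2.08 to 3.09 CPM in WT. Its annotated span overlaps those of B3GNT4 and 2 further genes, and ambiguous reads were not counted.

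Of the BCL2 family, BCL2 was called higher and the other 9 genes were not called over all 6 libraries. The call was 10% of this family, against 15.1% of all tested genes. BCL2, the founding survival protein of the family (ENSG00000171791, chromosome 18, 63123346 to 63320090 on GRCh38), was at 22.9, 15.7 and 16.7 CPM in the libraries labelled KO, against 10.2, 9.62 and 10.8 CPM in WT. The groups did not overlap, with means of 18.4 ± 3.86 CPM in the libraries labelled KO and 10.2 ± 0.581 CPM in WT (SD, n = 3 each). The log2 fold change was 0.85 ± 0.20 (edgeR adjusted p = 0.0297), and 0.68 without KO replicate 1. BCL2L1, which encodes BCL-XL, was at 12.9, 24.8 and 19.8 CPM in the libraries labelled KO, against 18.7, 18.8 and 17.2 CPM in WT, with KO replicate 1 below and the others above WT. MCL1, a short-lived survival protein, was at 281, 235 and 226 CPM in the libraries labelled KO, against 282, 281 and 275 CPM in WT. Without KO replicate 1 BCL2L1 was called higher at 0.30 and MCL1 lower at -0.27.

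The effectors of membrane permeabilisation did not pass the test in either fit. BAX was at 33.3, 125 and 98.5 CPM in the libraries labelled KO, against 124, 121 and 120.3 CPM in WT, and KO replicate 1 alone lay far below the rest (-0.51 ± 0.42 over all 6 libraries, -0.12 without it). BAK1 was at 41.1, 58.3 and 51.1 CPM in the libraries labelled KO, against 55.9, 50.9 and 56.5 CPM in WT. Of the BH3-only activators, which trigger BAX and BAK1, BCL2L11 (BIM) came nearest to the threshold. It was at 37.6, 31.7 and 34.1 CPM in the libraries labelled KO, against 23.9, 22.6 and 26.1 CPM in WT, without overlap (0.51 ± 0.14, edgeR adjusted p = 0.0546), and was called without KO replicate 1 at 0.45 (edgeR adjusted p = 0.000883).

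Of the other BH3-only genes, among them the p53-regulated BBC3 and PMAIP1, PMAIP1 alone lay below WT in each library labelled KO. BBC3, BID and BIK overlapped WT. BBC3, which encodes PUMA, was at 5.62, 27.2 and 20.1 CPM in the libraries labelled KO, against 28.2, 27.3 and 25.8 CPM in WT, and was called in neither fit. PMAIP1, which encodes NOXA, was at 62.3, 83.9 and 87.5 CPM in the libraries labelled KO, against 105, 99.7 and 106 CPM in WT, without overlap (-0.41 ± 0.16, edgeR adjusted p = 0.130; -0.27 without KO replicate 1, edgeR adjusted p = 0.00452). BID, which carries the signal of CASP8 to mitochondria, was at 10.6, 22.8 and 20.6 CPM in the libraries labelled KO, against 21.3, 22.0 and 23.5 CPM in WT. BIK had 0, 37 and 12 counts in the libraries labelled KO, against 35, 36 and 22 counts in WT.

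**Figure D4:**
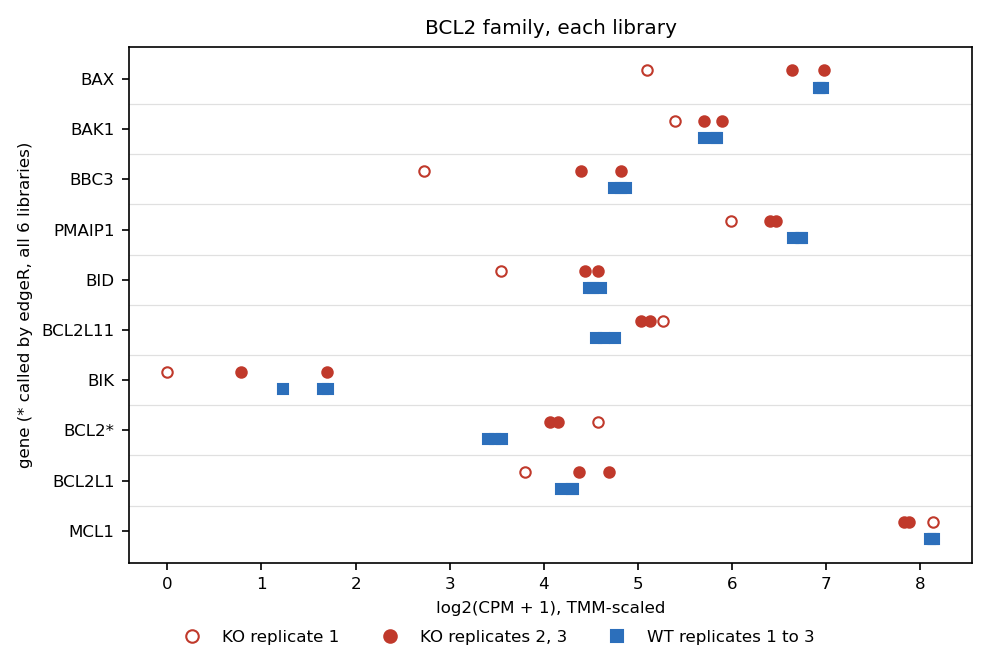
Level of the 10 BCL2 family genes of the list in each library as log2(CPM + 1), with libraries labelled KO as red circles above WT libraries as blue squares, and KO replicate 1 as an open circle; asterisks mark genes called by edgeR over all 6 libraries. BCL2 and BCL2L11 lie right of WT in each library labelled KO, PMAIP1 lies left of it, and KO replicate 1 is the lowest library for BAX and BBC3.

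A further list held 40 apoptosis genes outside the 50. Of 23 tested, 4 were called higher and 1 lower, or 21.7%, against 15.1% of all tested genes, and 13 of 25 tested were called without KO replicate 1, where 44% of all tested genes were called. HRK, a BH3-only gene, was at 28.2, 32.8 and 30.9 CPM in the libraries labelled KO, against 8.32, 9.80 and 8.76 CPM in WT (1.77, edgeR adjusted p = 0.000929). BIRC5, which encodes survivin, a protein of both mitosis and the inhibitor of apoptosis family, was at 412, 434 and 414 CPM in the libraries labelled KO, against 247, 234 and 235 CPM in WT (0.81, edgeR adjusted p = 0.00601). CASP10, the initiator caspase next to CASP8 and CFLAR on chromosome 2, was lower, at 15.7, 17.5 and 12.0 CPM in the libraries labelled KO, against 27.2, 28.8 and 29.8 CPM in WT (-0.92, edgeR adjusted p = 0.0173). HRK, BIRC5 and CASP10 were also called without KO replicate 1.

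A further list of 50 p53 targets gave 2 called higher and 1 lower of 44 tested, or 6.82%, against 15.1% of all tested genes, with a median log2 fold change of -0.13. FBXW7, a ubiquitin ligase subunit that degrades cyclin E and MYC, was at 36.5, 37.6 and 30.4 CPM in the libraries labelled KO, against 20.7, 18.3 and 19.0 CPM in WT (0.85, edgeR adjusted p = 0.0131). TGFA, a ligand of the EGF receptor, was at 7.54, 5.95 and 5.53 CPM in the libraries labelled KO, against 2.93, 1.90 and 1.53 CPM in WT (1.58, edgeR adjusted p = 0.0173). PLXNB2, a semaphorin receptor, was lower, at 127, 198 and 181 CPM in the libraries labelled KO, against 351, 332 and 343 CPM in WT (-1.02, edgeR adjusted p = 0.0138). Without KO replicate 1 this list had 10 called higher and 12 lower of 46 tested, where 22.3% of all tested genes were called higher and 21.7% lower.

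The position of KO replicate 1 within its group moved with the length of the gene. The difference between KO replicate 1 and the mean of KO replicates 2 and 3 on log2(CPM + 1) had a median of -1.29 in the 5 tested list genes with an annotated span under 5 kb and of 0.27 in the 10 between 50 and 100 kb. Over all tested genes the medians were -0.56 and 0.31 in these span classes. Across the 46 tested list genes the difference correlated with log10 span at Pearson's r of 0.61, and at 0.44 across the 15099 tested genes with a span; genes are not independent replicates, and they share these libraries. The short genes GADD45B, BAX, FADD and TRADD were low in KO replicate 1, and the longer MDM4 and ZMAT3 were high there. The part of gene length in the fold changes was not tested.

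**Figure D5:**
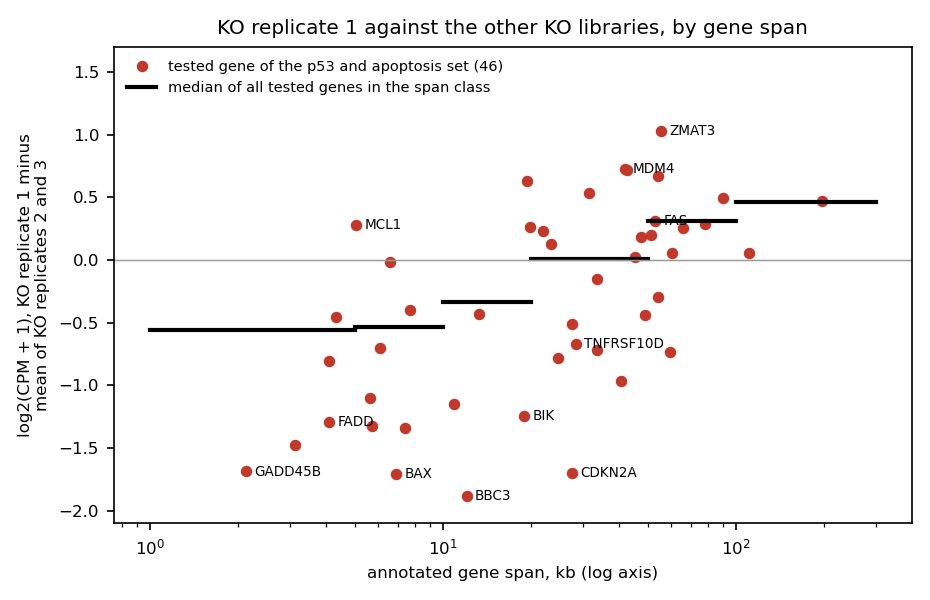
Difference between KO replicate 1 and the mean of KO replicates 2 and 3 on log2(CPM + 1) against annotated gene span in kb on a log axis, for the 46 tested genes of the list (points), with the median over all tested genes in each span class (bars; the outer classes have no outer limit). Genes under 20 kb lie mostly below 0 and genes over 50 kb mostly above it, as do the medians of all genes.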

How the data were processed

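The authors deposited whole-number counts of reads per gene and library, not normalised. The submitters' processing notes name the aligner HISAT2 2.2.1 and the counter HTSeq 0.12.4 on GRCh38, beside FastQC 0.11.9, bedtools 2.30.0, SAMtools 1.3.1 and DESeq2; their order, options and strand setting are not given in the sources used here. Reads in no feature made up 8.75% to 15.9% and ambiguous reads 9.74% to 12.5% of counted reads per library and were left out. Coverage files of the mitochondrial chromosome were not used. Ensembl IDs were paired with symbols by a supplied table; spans and promoter sequences are from RefSeq on GRCh38.p14, where 40 of the 50 genes had windows and genes on chromosome 8 are not shown.

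The test was that of edgeR 4.0.16 under R 4.3.3 (TMM scaling, filterByExpr, quasi-likelihood F test, group as the only term, Benjamini-Hochberg over all tested genes, threshold 0.05). Standard errors are the log2 fold change over the root of F. DESeq2 1.42.0 and limma-voom 3.58.1, RLE factors, other filters, removal of mitochondrial genes, leaving out each library and a replicate block were alternatives. The procedure was tested on simulated data. No 2 libraries agreed within sampling noise by chi-square. Intervals and limits for 0 counts (3 counts over a group) cover counting error only. The genes, the lists, the motifs and the tests were chosen with earlier results of these data known. Named are all 50 genes, and up to 4 called genes per direction of the further lists, by smallest adjusted p; results for some genes are not reported here.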

Additional observations from a re-analysis of the deposited data

How the results depend on the processing

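The 8 called genes of the list kept their direction in all 13 alternatives, each with an unadjusted p under 0.05. TNFRSF10D and BIRC3 kept their call in all 13, but they passed the filter on low counts only through the libraries labelled KO. A difference was thus built into their being tested, and their kept calls add no support. CASP9 and TP53INP1 kept their call in 11, FAS in 9, BCL2 in 8, and PPM1D and PLK3 in 7. In the further lists HRK was called in all 13, TGFA in 11, BIRC5 and PLXNB2 in 10, FBXW7 in 9, and CASP10 in 8.

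Counts of list genes moved to 8 higher with DESeq2. DESeq2 also gave 3 lower of the further p53 targets, 2 lower of the further apoptosis genes, and 2340 higher and 1866 lower over all genes. Limma-voom gave 2 lower of the further apoptosis genes, and without a filter on low counts there were 3 lower of the further p53 targets and 2 lower of the further apoptosis genes. Other scaling factors, a filter at 1 CPM and the removal of mitochondrial genes moved no count beyond 1.5 times. With single libraries left out, list genes ranged from 2 to 14 higher and from 0 to 9 lower, the further p53 targets from 0 to 10 higher and from 0 to 12 lower, the further apoptosis genes from 2 to 6 higher and from 0 to 7 lower, and all genes from 401 to 4048 higher and from 243 to 3927 lower. The highest of each of these counts came without KO replicate 1. Without WT replicate 1 or WT replicate 3 TNFRSF10D and BIRC3 alone kept their call among the list's 8, without WT replicate 2 also TP53INP1 and CASP9, without KO replicate 3 all but PPM1D, PLK3 and BCL2, and without KO replicate 2 all but PLK3.

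Deviations of same-numbered libraries correlated at -0.094, -0.043 and -0.0019, and those of the other pairs ranged from -0.089 to 0.092. With 3 libraries per group and KO replicate 1 apart from its group, these values cannot tell whether the numbers pair the samples. With the replicate block the list had 2 higher and 2 lower, the further p53 targets 1 higher, the further apoptosis genes 0 lower, and all genes 610 higher and 359 lower.

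The sign changed only in genes that were not called over all 6 libraries. CDKN2A was at -0.044 with limma-voom and -0.032 with the replicate block, and with single libraries left out it ranged from -0.15 to 0.53, below 0 without KO replicate 2 or 3. With single libraries left out, the log2 fold change ranged from -0.0052 to 0.41 for MDM2, -0.77 to 0.052 for GADD45B, -0.26 to 0.21 for BTG2, -0.32 to 0.0034 for AEN, -0.75 to 0.015 for FADD, -0.084 to 0.31 for XIAP and -0.23 to 0.016 for BAK1, with the sign changed without KO replicate 1 and, for BTG2, also without WT replicate 3. It ranged from -0.18 to 0.017 for RIPK1 and -0.15 to 0.30 for BCL2L1, with the sign changed without KO replicate 2, and from -0.013 to 0.18 for CASP6, with the sign changed without KO replicate 3. Low counts limit BIRC3, BIK, DIABLO, GADD45G and TNFRSF10C. The causes of these differences were not tested.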
